A study of Ovis aries with 16 samples.

Results

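A 1.4-Mb segment near the end of sheep chromosome 7 (chr7:95000000-96400000, Oar_v3.1) held 3 of the regions that the study listed as differentially methylated between fetuses of hay-fed and corn-fed ewes, all 3 within 15363 bp. Its members were chosen as follows. The peaks of all 16 fetuses were pooled, overlapping peaks (1 bp or more) were joined into regions, and a region was kept if 2 or more fetuses contributed to it and it overlapped the segment. This gave 421 regions, out of 512238 in the whole genome and beside 20653 on the rest of chromosome 7. Because the segment was taken for its listed diet regions, every difference between the diets in it is given as a description, with no p-value for any region, and counts of regions past a threshold are given only beside the share over the whole genome. Counts over the segment include the 3 listed regions unless stated.

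DNA was taken from the longissimus dorsi (LD) muscle, the long muscle of the back, of 16 fetuses of Polypay ewes, a prolific breed of sheep. The ewes were fed either hay (8 fetuses, Hay) or corn (8 fetuses, Corn) from mid-gestation until the fetuses were collected at necropsy late in pregnancy, and the diets were made to supply the same energy, with haylage added to the corn diet. Fetuses are named by diet and sample number. By the study's description of its DNA pools, every Hay fetus and most Corn fetuses had their twin among the 16, so the ewes were fewer than the fetuses. The labels do not tie the numbered samples to a ewe, a sex or a sequencing lane. The SEs and p-values therefore treat twins as independent, and the permutation p-values measure only the spread between these fetuses. Each SE of a log2 difference is the moderated SE of the limma fit. It also draws on the spread of other regions of the genome, so it does not follow from the SDs printed beside it.

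In mammals, DNA methylation is mostly found on the cytosine of CpG sites, where it is copied to the new strand when a cell divides. A methyl-binding domain (MBD) protein holds DNA fragments in which several such sites are methylated, so sequencing the bound fragments gives peaks over methylated stretches. The method reads the density of methylated sites and not the state of a single site, and stretches poor in CpG give little signal whatever their methylation.

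Each fetus had its own list of peaks with a p-value per peak. The peak score used throughout is −log10 of that p-value, and it is 0 in a fetus without a peak. Printed scores are not scaled between libraries, while log2 differences use scores scaled for each library. Outside the segment, the median score of a fetus averaged 1.45 in Hay and 1.54 in Corn, so unscaled medians of the diets also hold this difference. In the segment the p-values ran from 5.84e-07 to 0.133. The files hold no read counts, so the depth of each library is unknown and a missing peak can stand for low depth as well as for low methylation. The fetuses had between 261331 (Hay 11) and 519923 (Hay 15) peaks in all, with means of 405167 ± 88355 in Hay and 396176 ± 70011 in Corn (SD, n = 8 each).

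The first of the 3 listed regions, called here the first hay region, lay at chr7:95657054-95657741 and was 688 bp wide. It had a peak in 3 Hay fetuses, with scores of 0.891 in Hay 5, 1.44 in Hay 15 and 0.943 in Hay 16, and the score was 0 in the other 5 Hay fetuses and in all 8 Corn fetuses. The peaks of Hay 5 and Hay 16 were weak for their own libraries, since they stood above only 0.744% and 2.34% of all peaks of the same fetus. That of Hay 15 stood above 52.8%. The mean log2(scaled score + 1) was 0.41 ± 0.59 in Hay (SD, n = 8) and 0 in Corn, a difference of 0.41 (SE 0.23). The diets overlapped at 0, where most of the Hay fetuses stood together with every Corn fetus.

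The peaks behind the first hay region did not share a stretch of DNA. The peak of Hay 16 (113 bp, chr7:95657148-95657260) and that of Hay 5 (114 bp, chr7:95657628-95657741) had no base in common, and the 584-bp peak of Hay 15 (chr7:95657054-95657637) overlapped both. The region therefore existed as a region of 2 or more fetuses only through Hay 15, and without that fetus it was not formed. When peaks had to share 100 bp to be merged, 2 Hay fetuses were left in it.

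The second, the corn region, lay at chr7:95668026-95668781 and was 756 bp wide. It had a peak in 6 of 8 Corn fetuses, with scores of 1.14 in Corn 1, 1.25 in Corn 4, 2.51 in Corn 6, 2.20 in Corn 7, 1.48 in Corn 9 and 3.13 in Corn 14, and in 2 of 8 Hay fetuses, with scores of 0.976 in Hay 10 and 0.973 in Hay 15. Corn 2 and Corn 13 had none. Where there was a peak, every Corn score was above both Hay scores, and the diets overlapped through the 2 Corn fetuses at 0. The mean log2(scaled score + 1) was 0.26 ± 0.48 in Hay and 1.06 ± 0.69 in Corn (SD, n = 8 each), a difference of −0.80 (SE 0.36). The size of these log2 differences depends on the value added before the logarithm: between 5 and 0.5 in place of 1 it ran from −0.25 to −1.17 for the corn region, from 0.11 to 0.64 for the first hay region and from 0.19 to 0.99 for the second hay region, which lay beyond it. Corn 6, Corn 7 and Corn 14 held peaks stronger than 76.3%, 77.3% and 81.8% of their own peaks, which no peak of either hay region reached.

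The peaks in the corn region fell at 2 places. Corn 4, Corn 7 and Corn 9 each had 2 separate peaks, one near each end of the region, while Corn 6 and Corn 14 had a single peak of 731 and 736 bp across nearly all of it. The weak peaks of the Hay fetuses were at opposite ends, that of Hay 10 at chr7:95668076-95668264 and that of Hay 15 at chr7:95668479-95668652, and shared no base.

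The third, the second hay region, lay at chr7:95671807-95672416, was 610 bp wide and began 3025 bp after the corn region. It had a peak in 4 of 8 Hay fetuses, with scores of 1.34 in Hay 3, 1.57 in Hay 5, 1.08 in Hay 12 and 1.44 in Hay 15, and in no Corn fetus. The mean log2(scaled score + 1) was 0.65 ± 0.70 in Hay (SD, n = 8) and 0 in Corn, a difference of 0.65 (SE 0.29). The diets overlapped at 0, where the other 4 Hay fetuses stood. Hay 12 and Hay 15 had their peak in the second part of the region, Hay 3 had a short peak at each end, of 118 and 100 bp, and Hay 5 had 1 peak of 570 bp over most of it.

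**Figure D1:**
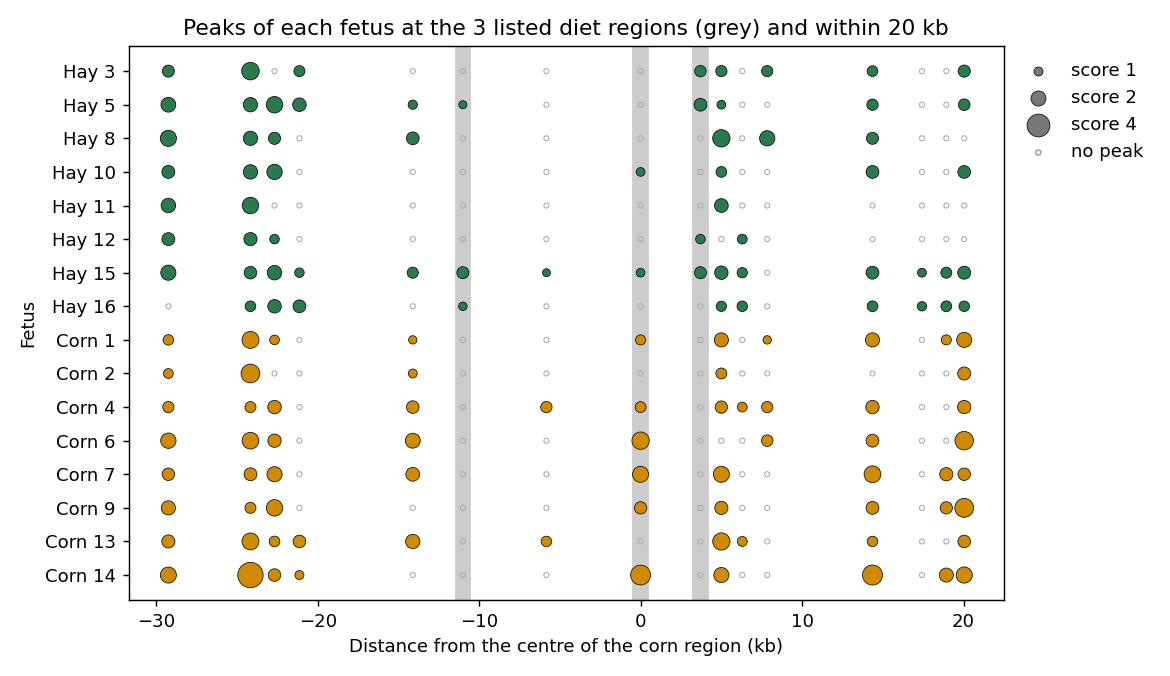
Peak scores of the 16 fetuses (vertical axis, Hay in green, Corn in orange) at the 16 regions that lay at least partly within 20 kb of the 3 listed diet regions, placed by distance from the centre of the corn region in kb. Circle area grows with the peak score, small open circles mark no peak and grey bars mark the listed regions: the outer grey bars hold 3 and 4 Hay peaks and 0 Corn peaks, and the middle bar holds 6 Corn and 2 Hay peaks.

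The fetuses were not sorted in the same way by the 3 listed regions, although 2 of them were higher in the same diet. Hay 15, the fetus with the most peaks in the genome, had a peak at all 3, Hay 5 had one at both hay regions, and 4 Hay fetuses had one at a single listed region. Hay 8 and Hay 11 had none, as did Corn 2 and Corn 13. Across the 16 fetuses, Pearson's r of the log2 scores was 0.45 between the hay regions, −0.13 between the first hay region and the corn region, and −0.31 between the corn region and the second hay region. With the mean of each diet subtracted, these were 0.26, 0.20 and 0.04, so that neither negative value remained. These are correlations over 16 fetuses of values that share the same libraries and the diet by which the regions were listed, and most of the values are 0.

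Using only stronger peaks left fewer fetuses in the listed regions. With peaks at or below the 25th percentile of score removed, or with the 261331 strongest peaks of each fetus, the first hay region kept a peak in 1 Hay fetus and the second in 3 Hay fetuses. The corn region then kept a peak in 5 or 4 Corn fetuses and lost both of its Hay peaks. The width of each listed region was within the range of other segment regions with a peak in the same number of fetuses: 6 of 44 others were at least as wide as the first hay region, 16 of 20 as the corn region and 8 of 21 as the second hay region.

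The 13 other regions within 20 kb (chr7:95638607-95688876) were uneven between the diets in both directions. Of these 13, 3 had a peak in more Hay fetuses, 8 in more Corn fetuses and 2 in equal numbers, and their log2 differences, Hay minus Corn, ran from −0.66 to 0.40. They were found in 2 to 16 fetuses. The nearest, at chr7:95673023-95673789 and 606 bp after the second hay region, was found in 7 fetuses of each diet. Its median score was 1.27 in Hay and 1.72 in Corn, and its log2 difference was −0.07. Its log2 score went with that of the second hay region at r = −0.28, and at −0.30 with diet means subtracted (n = 16). Of the 4 fetuses with a peak at the second hay region, 3 also had one here.

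Some regions of this window were found in most or all fetuses. The region at chr7:95643729-95644756 had a peak in all 16 fetuses, with scores of 1.23 to 2.56 in Hay (median 1.85) and 1.28 to 4.83 in Corn (median 2.38). Its log2 difference was −0.03. The region at chr7:95638607-95639709 had a peak in every fetus but Hay 16. At chr7:95688015-95688876 all 8 Corn fetuses had a peak, with scores of 1.51 to 2.88 (median 1.83). There 5 Hay fetuses had one, and the Hay scores ran from 0 to 1.61 (median 1.29). The log2 difference of −0.66 (SE 0.24) was smaller in size than that of the corn region. The diets overlapped there too, since the highest Hay score was above the lowest Corn score.

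Between the first hay region and the corn region lay a single region, at chr7:95662336-95662806, with a peak in Hay 15, Corn 4 and Corn 13 only. The region at chr7:95685751-95685905 was the narrowest of the window at 155 bp and had a peak in Hay 15 and Hay 16 only.

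Outside this window, the 5 regions with the largest moderated statistic of the diet contrast were spread over the segment, and none of them was on the study's list. The most uneven in presence was at chr7:95825167-95826224 (1058 bp), 157 kb from the corn region. It had a peak in 7 Hay fetuses, with scores of 0.976 to 1.72, and in no Corn fetus, and Hay 16 was the Hay fetus without one. The log2 difference was 1.10 (SE 0.35), larger than at the first or second hay region. Of all 512238 regions of the genome, 3 were found in at least 7 fetuses of Hay and 0 of Corn, and 21 showed the reverse. The 10 peaks in it were 135 to 790 bp wide and had no stretch common to all of them.

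The other 4 of these regions each had a peak in all fetuses of 1 diet. At chr7:96063779-96065056 every Hay fetus had a peak, with scores of 1.79 to 2.99 (median 2.43), and 6 Corn fetuses had one, with a Corn range of 0 to 3.07 (median 1.71) and a log2 difference of 0.75 (SE 0.20). At chr7:95476918-95477778 the Corn scores ran from 1.36 to 6.06 (median 2.86) and the Hay scores from 0 to 3.64 (median 1.30), with a difference of −0.82 (SE 0.22). At chr7:95230593-95231461 the Corn scores ran from 1.38 to 2.91 (median 1.86) and the Hay scores from 0 to 1.57 (median 0.498), with a difference of −0.85 (SE 0.27). In each of these 3 regions the ranges of the diets overlapped. At chr7:95844355-95845258, 176 kb from the corn region, all 8 Corn fetuses had a peak, with scores of 1.03 to 1.74 (median 1.34), and the 2 Hay fetuses with one, Hay 3 and Hay 15, had scores within the Corn range.

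**Figure D2:**
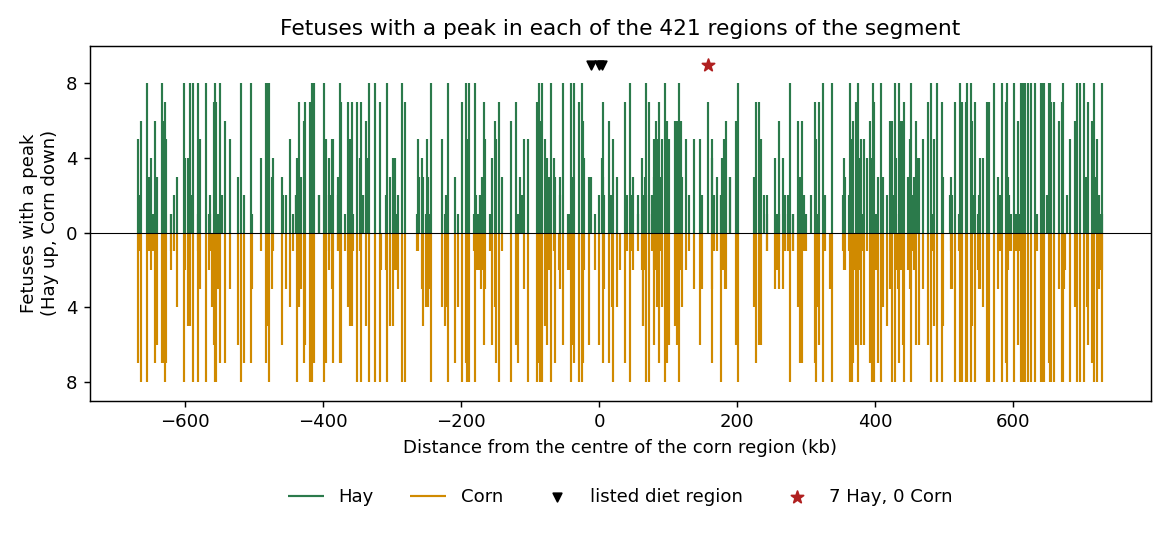
Number of fetuses with a peak in each of the 421 regions of the segment, Hay upward and Corn downward, by distance from the centre of the corn region in kb. Triangles mark the 3 listed regions and the star the region found in 7 Hay fetuses and 0 Corn fetuses. Most bars reach to both sides.

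Over all 421 regions, 160 (38.0%) had a peak in more Hay than Corn fetuses, 137 (32.5%) in more Corn fetuses and 124 (29.5%) in equal numbers, the 160 including 2 listed regions and the 137 including 1. Over the whole genome these shares were 28.9%, 32.6% and 38.4%. With limma, 0 of the 421 regions passed an adjusted p of 0.1, against a background of 0.000586% of all regions. At an unadjusted p under 0.05 there were 29 (6.89%, against 3.16% of all regions), of which 27 were not on the study's list. Of the 29, 16 were higher in Hay (3.80% of the segment's regions, against 1.43% of all) and 13 in Corn (3.09%, against 1.73%). Since the segment was chosen by this contrast, nothing is read from the difference between these shares.

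Peaks in at least 3 fetuses of 1 diet and in 0 of the other were found in 14 regions for Hay (3.33%, against 1.49% of all regions) and in 4 for Corn (0.950%, against 0.853%). Of the 14 Hay regions, 2 were the listed hay regions. Hay 15 had a peak in 12 of the 14 and Hay 10 and Hay 11 in 1 each, and these were the Hay fetuses with the most and the fewest peaks in the genome. Without Hay 15 the counts were 8 for Hay (2.03%, against 0.751% of all regions) and 8 for Corn (2.03%, against 1.41%). With the 261331 strongest peaks of each fetus they were 9 (3.07%, against 1.33%) and 9 (3.07%, against 1.23%). The count for Corn fell to 1 without Corn 7 and to 2 without Corn 4 or without Corn 9, and the count for Hay ran from 8 to 19 when 1 fetus was left out in turn, while the share over all regions ran from 0.751% to 2.87%.

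The number of peaks in the segment did not separate the diets. Hay fetuses had 158 to 461 peaks in it (median 319) and Corn fetuses 218 to 407 (median 288), with means of 317.9 ± 94.6 and 301.4 ± 58.5 (SD, n = 8 each). The difference of 16.5 peaks was smaller than either SD. It was −3.95 without Hay 15, 4.59 without Corn 9, 5.48 without Hay 16, 9.20 without Hay 8 and 11.02 without Corn 14, and 39.3 without Hay 11, 31.6 without Corn 7 and 28.3 without Hay 10. With the 261331 strongest peaks of each fetus it was −1.75, and with peaks at or below the 25th percentile of score removed −5.38. Without the listed regions the means were 316.6 and 300.3. The lowest and the highest value were both from Hay fetuses, Hay 11 and Hay 15.

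The number of peaks of a fetus in the segment followed its number in the rest of the genome. Pearson's r was 0.943 and Spearman's rho 0.956 over the 16 fetuses (two-sided permutation test, p = 1e-05 for each, the smallest that 100000 draws can give). Within Hay r was 0.976 (exact permutation test, p = 4.96e-05, n = 8) and rho 0.976 (exact permutation test, p = 0.000397), and within Corn r was 0.896 (exact permutation test, p = 0.00174, n = 8) and rho 0.905 (exact permutation test, p = 0.00456). These are 4 relations, and the adjusted p of the weakest, Spearman's rho within Corn, was 0.00456 (Benjamini-Hochberg, exact permutation test). Without Hay 11 and Hay 15, the fetuses farthest from the median, r was 0.918, so the relation did not rest on them.

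**Figure D3:**
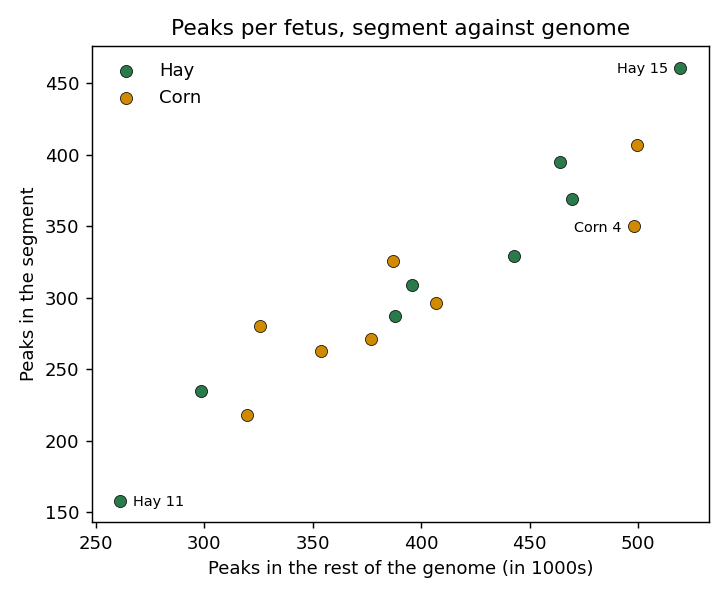
Peaks of each fetus in the segment (vertical axis, number of peaks) against its peaks in the rest of the genome (horizontal axis, in units of 1000 peaks), 1 point per fetus. The points rise together from Hay 11 (158 peaks in the segment) to Hay 15 (461), and Hay and Corn fetuses are mixed along the line.

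Peaks were denser in the segment than elsewhere in every fetus. There were 221 ± 54.6 peaks per Mb in the segment and 154.8 ± 29.8 in the rest of the genome (SD, n = 16), a mean difference within fetus of 66.3 ± 28.3 that was positive in 16 of 16 (two-sided permutation test over all 65536 sign changes, p = 3.05e-05, the smallest they can give, adjusted p = 9.16e-05 over 3 tests). This p-value measures how far the fetuses agree at this segment. It does not measure how the segment ranks among other windows, which is given below. The mean difference was 51.0 with the weaker peaks removed, 42.3 with equal numbers of peaks and 37.2 in a narrower segment around the listed regions. The excess was smallest in Hay 11, at 11.9 peaks per Mb, and largest in Hay 15, at 128. The peaks were not shown to differ in width or in score. The median peak width was larger in the segment by 8.53 ± 44.2 bp, with 7 fetuses higher and 8 lower (permutation test, p = 0.486, adjusted p = 0.581, n = 16). Against the rest of chromosome 7 alone it was larger by 25.5 bp (permutation test, p = 0.0350, n = 16). The median score was larger by 0.0162 ± 0.115, with 10 fetuses higher and 6 lower (permutation test, p = 0.581, n = 16).

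Set among windows of the same length, the segment was rich in regions but not at the end of the range. It held more regions than 89.2% of the 1835 windows of the genome, whose median was 265, and than 90.1% of the 71 windows of chromosome 7. Its regions covered 360075 bases, more than 81.6% of the windows. The median gap between its regions was 1554 bp, against 1895 bp over all regions.

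The regions of the segment were shared between fetuses about as those of the genome. The median region had a peak in 8 fetuses in both. In the segment, 60 regions (14.3%) had a peak in all 16 fetuses, against 17.3% of all regions, and 74 (17.6%) had one in 2 fetuses, against 16.0%. Regions found in more fetuses were wider, with a median width of 285 bp for those in 2 to 4 fetuses, 793 bp for 5 to 12, 1066 bp for 13 to 15 and 1456 bp for all 16. Over the whole genome these medians were 283, 769, 975 and 1653 bp. Because a region was formed by joining the peaks of several fetuses, part of this increase with sharing is built in.

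Regions at the threshold of 2 fetuses were narrow, and many came from Hay 15, Hay 16 and Corn 7. Of the 74, 30 were in 2 Hay fetuses, 8 in 2 Corn fetuses and 36 in 1 of each, so 40.5% were of Hay alone, against 28.7% of such regions in the genome. Hay 15 had a peak in 38 of the 74, Hay 16 in 24 and Corn 7 in 23, and the pairs found most often were Hay 15 with Hay 16 (13 regions, 17.6%) and Hay 15 with Corn 7 (12 regions, 16.2%). In the whole genome these pairs made up 5.25% and 6.74% of such regions, and the most frequent pair was Hay 15 with Corn 4 (7.94%). Their median width was 234 bp. Just outside the threshold, another 128 merged regions with a peak in 1 fetus had a median width of 168 bp and were left out.

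At the ends of the segment, the first region inside was chr7:95000905-95001726, found in 5 Hay fetuses and 7 Corn fetuses, and the last was chr7:96396903-96397205, found in 1 and 2. The nearest regions outside were chr7:94996180-94996986, in 1 Hay fetus and 2 Corn fetuses, and chr7:96401133-96401580, in 0 and 2. Peaks on chromosome 7 went on for 3.68 Mb beyond the segment.

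The strongest and widest regions carried a peak in all 16 fetuses and lay mostly toward the end of the segment. The mean score was highest, at 3.46, in chr7:95097729-95099535. There Hay fetuses had scores of 1.92 to 5.22 (median 2.83) and Corn fetuses 2.54 to 5.07 (median 4.02), with a log2 difference of −0.10. The mean score was 3.43 in chr7:96290729-96296998, which at 6270 bp was also the widest region and the only one of at least 5 kb, and 3.24 in chr7:96311659-96313075. In each of these the ranges of the diets overlapped. The next widest were chr7:96237863-96242036 (4174 bp) and chr7:96276863-96280605 (3743 bp).

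When the segment was cut into 14 bins of 100 kb, the number of regions per bin was even, from 23 to 37 with a median of 30, but the bases covered were not. The last 2 bins had 44666 and 41014 bases in regions and the other 12 between 18909 and 28695. The same 2 bins held 12 and 10 of the 60 regions found in all fetuses. The bin with the listed regions had 30 regions, with 109 peak calls in Hay and 121 in Corn, where a call is 1 fetus with a peak in 1 region. The bin after it had 158 in Hay and 137 in Corn. Hay had more calls in 9 bins and Corn in 5.

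**Figure D4:**
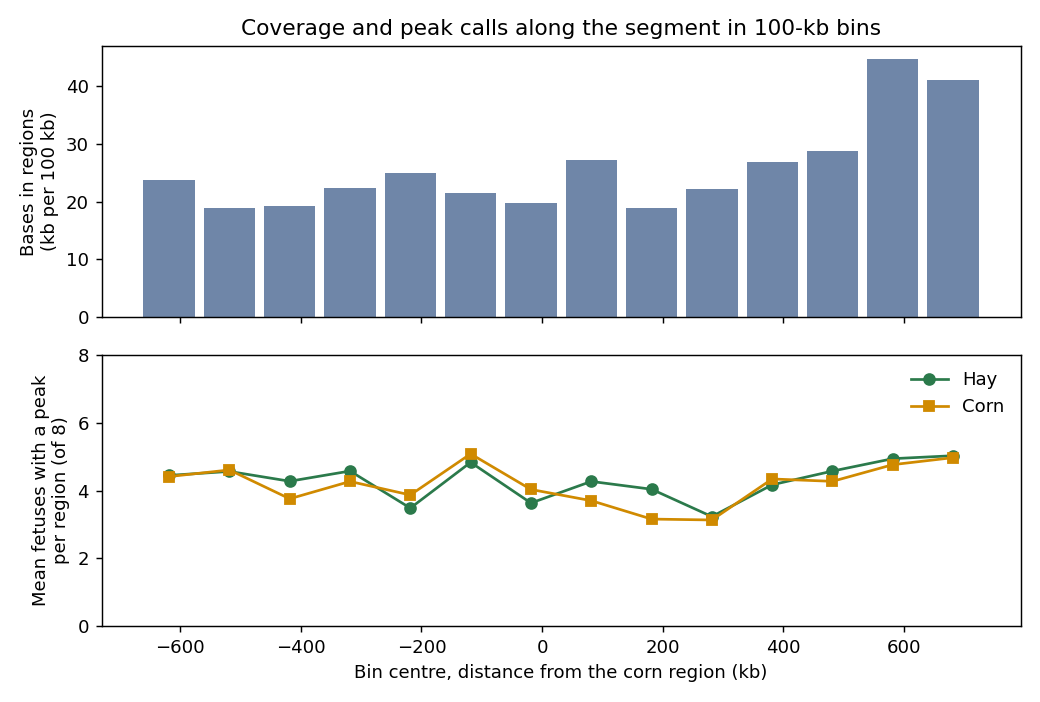
The segment in 14 bins of 100 kb by distance from the corn region in kb: bases in regions per bin (top, bars, kb) and the mean number of fetuses with a peak per region (bottom, of 8, Hay circles and Corn squares). The last 2 bins have the tallest bars, and the lines of the diets cross several times.

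Whether fetuses were grouped in the same way by neighbouring regions was read from the correlation, over the 16 fetuses, of the log2 scores of adjacent regions. For the 419 adjacent pairs of the segment up to 20 kb apart the median r was 0.14, against 0.15 for all such pairs of the genome. Pairs up to 1 kb apart had a median of 0.18 (157 pairs), against 0.24 in the genome. Pairs 1 to 2 kb apart had 0.04 (81 pairs), pairs 2 to 5 kb apart 0.13 (120 pairs) and pairs 5 to 20 kb apart 0.14 (61 pairs), where the genome had 0.10 in all 3 classes. Pairs of segment regions at least 500 kb apart still had 0.11, above the value of neighbours 1 to 2 kb apart and a little below those of neighbours 2 to 20 kb apart.

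By its median, the correlation of neighbours in the segment was therefore weak, and most of it was also found between regions that were far apart. The closest neighbours differed more from distant pairs in the share of high values. An r of at least 0.5 was found in 24.8% of segment pairs up to 1 kb apart and 7.84% of those at least 500 kb apart. In the genome it was found in 25.4% of pairs up to 1 kb apart. Subtracting diet means left the median over adjacent pairs at 0.14. With the 261331 strongest peaks of each fetus it was −0.01. All pairs share the 16 libraries, whose numbers of peaks differed as given above, and the part of that difference in these correlations was not tested.

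**Figure D5:**
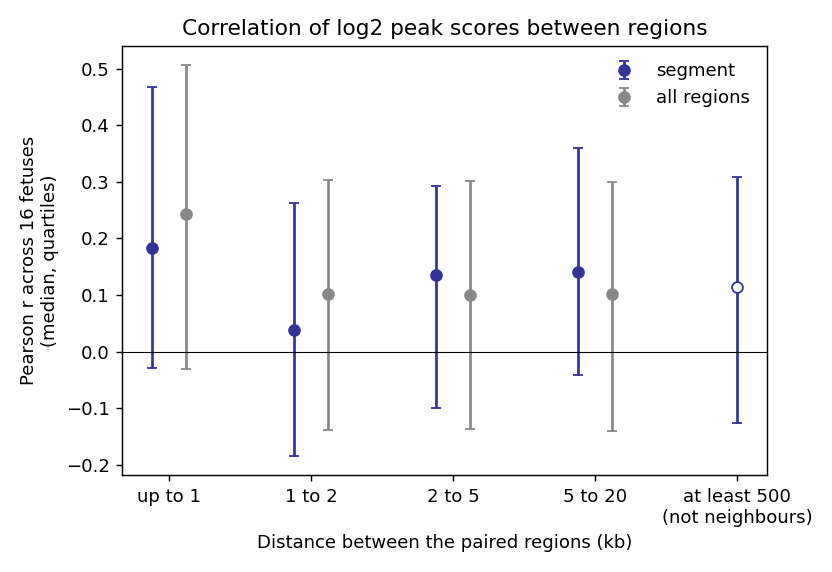
Pearson's r of log2 peak scores over 16 fetuses between adjacent regions, by the distance between them in kb, for the segment (blue) and all regions of the genome (grey), and between segment regions at least 500 kb apart (open circle). Points are medians and bars the quartiles, and the quartiles of the segment and the genome overlap in every class.

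Fetuses did not fall into 2 diets by the regions they shared. The share of regions in common, as a percentage of the regions with a peak in either fetus, had a median of 53.1% in the 28 Hay pairs, 61.2% in the 28 Corn pairs and 55.4% in the 64 mixed pairs, and without the listed regions 53.3%, 61.2% and 55.5%. The mixed pairs thus stood above the Hay pairs and below the Corn pairs, and over all regions of the genome the order was the same, at 53.8%, 61.1% and 57.0%. Without the listed regions, the closest fetus was of the same diet for 4 of 8 Hay and 6 of 8 Corn fetuses, and over all regions for 2 of 8 and 7 of 8.

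In a principal component analysis of the 418 regions not on the study's list, the first component held 24.6% of the variance and the second 11.1%. The first ran from −7.89 (Hay 11) to 10.3 (Hay 15), the fetuses with the fewest and the most peaks, with Corn fetuses between −5.96 and 6.35. On the second, 5 Hay fetuses lay below every Corn fetus, with Hay 3 lowest at −9.55, and the other 3 lay among the Corn fetuses, which ran from −0.474 to 3.68. The diets overlapped on both components. The difference between the diet means held 8.41% of the variance over these regions, against 6.17% over all regions of the genome. Any split of the fetuses into groups holds some of the variance, and the segment was chosen by this contrast, so neither share is read as an effect of diet.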

How the data were processed

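MBD-enriched DNA of 16 fetal LD samples was sequenced, and groups were taken from the diet in the labels. Per the labels and the study's methods, the authors used Trimmomatic 0.33 for trimming, BWA 0.7.15 for alignment to Oar_v3.1, Picard 1.107 against duplicates and ChIPseeqer to call peaks separately for every fetus. No input control or threshold is given in the sources used here. The deposited lists give chromosome, start, end and a value read, from its range, as the p-value of the peak. The study found its regions from read counts, which are not used here.

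The members and lists were chosen with earlier results of these data known. A p-value of 0 was set to 1e-100, which touched 0 peaks of the segment. The highest score of a fetus in a region was divided by a library factor (0.765 to 1.38, from median ratios at the 88488 regions found in all fetuses), and log2(score + 1) was tested over all regions with limma 3.58.1 (eBayes with trend, R 4.3.3) and Benjamini-Hochberg adjustment. Printed scores are unscaled, and printed SEs of log2 differences are the moderated SEs of this fit. The fit was tested on simulated data (20000 regions): 100% of 200 shifted regions were recovered and 9.91% of calls were false. The shift was 2 log2 units in every Hay fetus, larger than any log2 difference given above. The recovery therefore does not tell how many differences of the sizes given above the fit would find. Permutation tests used numpy 2.4.6, with ranks and the Benjamini-Hochberg adjustment of these tests from scipy 1.17.1, and pandas 2.3.3 under Python 3.11.15.

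Named regions are the listed ones, all within 20 kb of them, the 5 others with the largest limma statistic, the 3 of highest mean score, the 3 widest and those nearest the ends. Regions of 1 diet alone are given as counts. Coordinates are as deposited, and the length of each chromosome was taken as the end of its last peak. No gene is named and no sequence shown, because no annotation or genome of Oar_v3.1 was used here. Alternatives changed the pseudocount (5, 0.5), scaling, peaks used, fetuses required (3), overlap (100 bp), reference, a covariate for peak number, the extent (a narrower segment around the listed regions) and the fetuses.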

Additional observations from a re-analysis of the deposited data

Results flagged for a closer look

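In 9 of 62 groups of 8 fetuses, the highest or lowest value stood farther from its neighbour, relative to the range of its group, than Dixon's 95% limit for 8 values allows. Chance alone meets this limit in about 1 of 20 groups when the values are normally distributed. Groups that hold scores of 0 for missing peaks are not of that kind, and groups of scores at nearby regions share their fetuses. The number flagged therefore cannot be weighed against that rate. Hay 5 was the highest Hay fetus at 3 of the regions found in all fetuses, with scores of 5.22 at chr7:95097729-95099535, 3.49 at chr7:96276863-96280605 and 4.93 at chr7:96290729-96296998. Corn 14 was the highest Corn fetus at 2 regions, with scores of 6.06 at chr7:95476918-95477778 and 4.83 at chr7:95643729-95644756. Its median peak width was also 130 bp larger in the segment than in the rest of the genome, the highest difference among Corn fetuses. In the rest of the genome, Corn 14 had the highest median peak width (508 bp) and score (1.73) of all 16 fetuses. Hay 5 had the highest of the Hay fetuses there (348 bp and 1.60). The scores printed here are not scaled for this. Hay 16 had a score of 0 where every other Hay fetus had a peak, at chr7:95638607-95639709 and at chr7:95825167-95826224. Hay 15 alone among Hay fetuses had a peak at chr7:95662336-95662806, with a score of 0.881.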

How the results depend on the processing

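Peaks per Mb stayed higher in the segment under every alternative run, with a difference of 62.2 to 70.0 leaving out 1 fetus in turn, 51.0 with peaks at or below the 25th percentile of score removed, 42.3 with equal numbers of peaks and 37.2 in a narrower segment around the listed regions (permutation test, p = 0.000244, n = 16). The number of segment regions past an adjusted p of 0.1 was 0 in all. The number over the whole genome ran from 0 to 199, the highest without the 4 fetuses with fewest peaks. Regions with an unadjusted p under 0.05 numbered 29 and ranged from 20 (without Corn 9, 4.77% against 2.69% of all regions) to 41 (without Hay 11, 9.76% against 5.31%), the count also found without Hay 10, leaving out 1 fetus in turn. The count was 39 with the covariate for peak number (9.26% against 4.99%) and 37 without scaling (8.79% against 5.68%). Without the 4 fetuses with fewest peaks it was 39 (9.44% against 4.95%). There were 19 with the weaker peaks removed (5.85% against 3.31%), 18 with equal numbers of peaks (6.14% against 3.80%) and 9 in the narrower segment (7.76% against 3.16%), all of which by construction hold fewer regions. Under these same 3 alternatives the difference in median peak width turned to −6, −9.47 and −0.438 bp (permutation tests, p = 0.873, 0.685 and 0.977, n = 16). Against the rest of chromosome 7 the difference in width was 25.5 bp and passed 0.05 (permutation test, p = 0.0350, n = 16). The difference in median score turned to −0.0126 with the weaker peaks removed and −0.0375 in the narrower segment. The cause of these changes was not tested. Leaving out 1 fetus in turn, the difference in width ranged from 0.433 to 12.97 bp and in score from 0.00171 to 0.0308. The median number of fetuses per region was then 7 to 8, the median r of neighbours 0.112 to 0.156, and the difference in peaks, Hay minus Corn, −3.95 to 39.3. The similarity of same-diet over mixed pairs was 0.737 to 3.21 percentage points. Leaving out the 4 fetuses with fewest peaks, and repeating the counts of regions of 1 diet alone, were chosen after seeing the data. No paired analysis of the diets was possible, since each ewe was fed only hay or only the corn diet. Twins could not be matched, because the labels do not tie the samples to ewes. With no read counts, the limit that depth sets on a missing peak cannot be given.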
